A study of Mus musculus with 39 samples.

Results

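Osteopontin (Spp1), clusterin (Clu) and Tm4sf4 were examined in 39 single cells from adult mouse liver. They are 3 of the 10061 gene symbols measured, chosen because earlier results of the same data had placed them high in the bile duct cells, so their levels are given as a description and no test of them was made. Values of all transcripts of a symbol were added, which joined 5 transcripts for Spp1 and 1 each for Clu and Tm4sf4. The cells were GFP-positive cells sorted from Krt19CreERT/Rosa26CAG-EGFP mice and picked singly. In this system the Krt19 promoter, active in bile duct epithelium, drives an inducible Cre, and the Cre switches on GFP in that cell and its descendants. The labels give 1 group, with the same genotype for every cell and no treated or untreated arm. They name no animal, age, treatment, sort or batch, so cells are not replicates of a condition and the spread given is between single cells.

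Osteopontin is a secreted, acidic glycoprotein that binds integrins and the hyaluronan receptor Cd44. In the liver it is known as a product of bile duct epithelium. Clusterin is a secreted chaperone that binds misfolded proteins outside the cell, inhibits the terminal complement complex and circulates in plasma. Tm4sf4 is a membrane protein of the L6 family that crosses the membrane several times, as tetraspanins do, and is expressed in liver and gut epithelium.

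On the GRCm38 assembly Spp1 lies on the plus strand at chr5:104435118-104441050, Clu on the plus strand at chr14:65968483-65981547 and Tm4sf4 on the plus strand at chr3:57425314-57441677. RefSeq promoter windows on GRCm38.p6 were matched by symbol for Spp1 and Tm4sf4, which is 2 of the 3 genes. They are shown because the members were high in the same cells. The Spp1 stretch is the 250 bases before its first RefSeq start, chr5:104434861-104435110, plus strand. The Tm4sf4 stretch is the 154 bases of its window that precede the first annotated exon, chr3:57425160-57425313, plus strand. Capitals mark matches to the motifs searched.
Spp1: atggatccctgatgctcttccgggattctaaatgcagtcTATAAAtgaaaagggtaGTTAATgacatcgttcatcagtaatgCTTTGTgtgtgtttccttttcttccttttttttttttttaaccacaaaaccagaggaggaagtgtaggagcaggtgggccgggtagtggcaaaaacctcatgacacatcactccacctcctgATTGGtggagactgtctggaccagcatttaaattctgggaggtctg
Tm4sf4: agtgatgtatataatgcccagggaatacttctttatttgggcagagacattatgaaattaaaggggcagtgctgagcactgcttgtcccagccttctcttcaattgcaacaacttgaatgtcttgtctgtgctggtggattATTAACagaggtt
The motifs were searched on both strands. They were the TATA box written TATAAA, the CCAAT box, the half-site of HNF1 factors written GTTAAT with a second form GTTAAC, the AP-1 motif written TGANTCA and the SOX core written ACAAAG with a second form ACAATG. None of these letter strings overlapped another match. The Spp1 stretch held TATAAA 211 bases before the start, GTTAAT 194 bases before it, CTTTGT (the minus-strand form of ACAAAG) 168 bases before it and ATTGG (the minus-strand form of CCAAT) 46 bases before it. The Tm4sf4 stretch held ATTAAC, the minus-strand form of GTTAAT, 109 bases before its RefSeq start. GTTAAT was the 1 motif present in both of these stretches. RefSeq gives Spp1 a second start, whose window of 250 bases, chr5:104435942-104436191, held CTTTGT and no GTTAAT. It occurred in 6.43% of 32851 RefSeq windows of 250 bases and in 4.09% of the same windows shortened to the 154 bases of the Tm4sf4 stretch. TATAAA occurred in 12.4%, ACAAAG in 16.5% and CCAAT in 33.8% of the full windows. A match is a description of the letters and no evidence of binding.

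Values are linear, in CPM (counts scaled by sequencing depth), derived from the deposited log2 values. A gene was called detected at 1 CPM and high at 100 CPM. Cells were grouped by 104 cell type markers without the 3 genes, which gave 22 cholangiocyte-like cells, 6 hepatocyte-like cells, 7 cells with mesothelial and collagen markers and 4 with blood cell markers. The last 2 groups were left without a cell type name. The group's medians depend on this division. In a group of 12 cells from average linkage they were 25683 CPM for Spp1, 8578 CPM for Clu and 2339 CPM for Tm4sf4, and in the 33 cells of the division into 2 groups they were 8735, 7137 and 1353 CPM, against 14321, 15151 and 2612 CPM in the 22 cells described here. Each cell had between 1866 and 5298 genes at 1 CPM (median 2985). In 37 cells a median of 45.0% of the low values (33.7% to 55.4%) followed a step taken as the worth of 1 read. By it 1 CPM stood for a median of 12.0 reads (range 3.67 to 41.5). Even housekeeping genes had a value of 0 in some cells (5 of 12 genes, 35 cells affected), so a member is only said to be listed at 0.

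The label of the main group was set beside the levels of other bile duct markers. Those markers were also used to group the cells, so a higher level in this group is no independent check of the name. Among the 10 leading genes of the cholangiocyte-like cells the listed cholangiocyte markers were the 3 members alone, and with the members left out 0 of the 10 leading genes were listed markers of any type. The name therefore rests on the other markers' own values. The summed level of the 16 measured cholangiocyte markers other than the members was 580 to 34354 CPM in the cholangiocyte-like cells (median 6342). It was 2.26 to 2811 CPM in the 17 other cells, highest in those with mesothelial and collagen markers (median 1536). Median Krt19 was 127 CPM in that last group and 123 CPM in the cholangiocyte-like cells, and Krt7 39.7 against 20.7 CPM. These duct keratins thus did not set the groups apart. Among other markers, Epcam (0.0584 against 2.07 CPM) and Cldn7 (0.175 against 39.9 CPM) went the other way. Hepatocyte markers were also present in the cholangiocyte-like cells. The summed level of the 33 hepatocyte markers was 20.8 to 50119 CPM there, against 54220 to 199013 CPM in the hepatocyte-like cells. Its median in the main group, 9753 CPM, was above the 6342 CPM of the shorter cholangiocyte list. At 100 CPM or more, 11 cells of the main group held at least 3 hepatocyte markers, and 19 held at least 3 cholangiocyte markers. Of the 33, 7 stayed below 1 CPM in every cholangiocyte-like cell, among them Apoc3 and Fabp1. Their part in the levels of the members was not tested.

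All 3 genes were high together in the cholangiocyte-like cells, and they parted from each other outside them. Spp1 and Tm4sf4 were low or listed at 0 in nearly all of the other cells, while Clu was also high in every hepatocyte-like cell and in several cells with mesothelial and collagen markers. Over all 39 cells Spp1 was detected in 29 (exact binomial 95% interval 57.9% to 87.0%), Clu in 38 (86.5% to 99.9%) and Tm4sf4 in 31 (63.5% to 90.7%). These intervals cover the choice of cells alone.

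Spp1 had a lowest level of 149 CPM, a median of 14321 CPM and a highest level of 83095 CPM in the 22 cholangiocyte-like cells. It had 0.0399, 50.3 and 365 CPM as lowest, median and highest in the 6 hepatocyte-like cells, and 0, 0.117 and 6.52 CPM in the 7 cells with mesothelial and collagen markers. The 4 cells with blood cell markers had 9.27, 4.11, 2.14 and 0.165 CPM. The cholangiocyte-like cells thus held every high value but 2, and their range touched only that of the hepatocyte-like cells. That touch came from cell 24 at 149 CPM, against 365 and 161 CPM in hepatocyte-like cells 2 and 3, and the other 21 cholangiocyte-like cells were above all hepatocyte-like cells. The median was 285 times that of the hepatocyte-like cells. On the log2(CPM + 1) scale the mean difference from the hepatocyte-like cells was 9.69.

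The hepatocyte-like cells fell on both sides of the detection limit for Spp1. Cells 2, 3 and 4 had 365, 161 and 99.8 CPM, and cells 1, 38 and 39 had 0.0921, 0.0399 and 0.831 CPM. All 6 had Krt19 listed at 0 and albumin between 13202 and 46892 CPM. The summed level of the other cholangiocyte markers in these 6 cells was 2.26 to 169 CPM, and 11 of the 16 were below 1 CPM in each of them, among them Krt19, Krt7 and Epcam.

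Clu had a lowest level of 1307 CPM, a median of 15151 CPM and a highest level of 31269 CPM in the cholangiocyte-like cells. It had 794, 1205 and 1870 CPM as lowest, median and highest in the hepatocyte-like cells, and 5.32, 141 and 7137 CPM in the cells with mesothelial and collagen markers. The 4 cells with blood cell markers had 3.47, 1.31, 5.15 and 0.771 CPM. Clu was therefore graded over the groups, with the ranges of the cholangiocyte-like and hepatocyte-like cells touching through cell 21 alone. The median was 12.6 times that of the hepatocyte-like cells and 107 times that of the cells with mesothelial and collagen markers. The 7137 CPM of cell 37 stood apart in its group, where the next highest cell had 372 CPM, and 16 of the 22 cholangiocyte-like cells exceeded it. Cell 37 had 0.32 CPM of Spp1, and Tm4sf4 was listed at 0.

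Tm4sf4 had a lowest level of 46.2 CPM, a median of 2612 CPM and a highest level of 13198 CPM in the cholangiocyte-like cells. It had 1.75, 61.4 and 112 CPM as lowest, median and highest in the hepatocyte-like cells, and 0, 0 and 8.97 CPM in the cells with mesothelial and collagen markers, 4 of which listed it at 0. The 4 cells with blood cell markers had 1.31, 0.698, 0 and 0.0551 CPM. It was low rather than absent in the hepatocyte-like cells, where it was detected in 6 of 6 and reached 100 CPM in 1. Cell 34 was the single cholangiocyte-like cell within the hepatocyte-like range, and no cholangiocyte-like cell fell within the ranges of the remaining groups. The median was 42.5 times that of the hepatocyte-like cells.

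**Figure D1:**
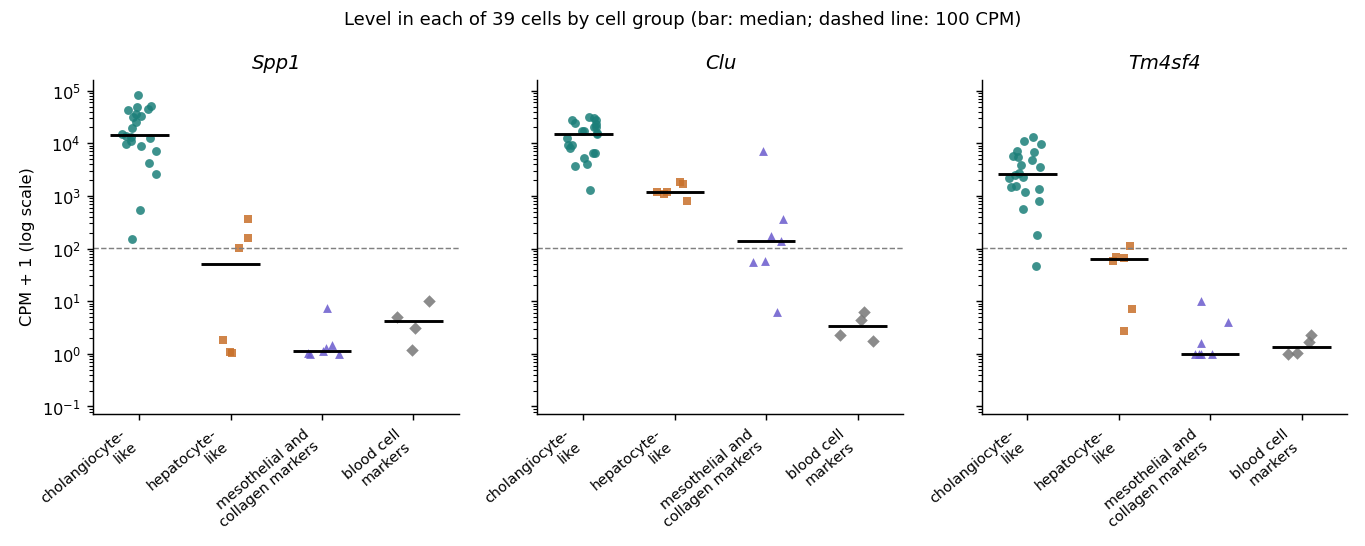
Level of Spp1, Clu and Tm4sf4 (CPM + 1, log scale) in each of 39 cells by cell group; points are cells, bars are medians and the dashed line is 100 CPM. Spp1 and Tm4sf4 were near the bottom in the 2 groups on the right, while Clu stepped down from cholangiocyte-like to hepatocyte-like cells, then to cells with mesothelial and collagen markers and last to those with blood cell markers.

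Library measures also differed between these groups. The ribosomal precursor Rn45s took 8.42% to 31.2% of the CPM in cholangiocyte-like cells and 0.383% to 1.22% in hepatocyte-like cells, and Lars2 had a median of 13388 CPM against 0.984 CPM. The median number of immediate early genes at 100 CPM was 9.5 in cholangiocyte-like and 0.5 in hepatocyte-like cells. In the groups with mesothelial and collagen markers and with blood cell markers, Rn45s took 12.0% to 21.4% and 12.8% to 21.6%, values within the cholangiocyte-like range, and there the mean log2 differences of the cholangiocyte-like cells were 13.04 and 11.73 for Spp1, 6.36 and 11.83 for Clu, and 10.29 and 10.64 for Tm4sf4. The differences from the hepatocyte-like cells were 9.69, 3.24 and 6.30 for the 3 genes in the same order. The groups also differ in their cell type markers. The part of the library measures in any of these differences was not tested.

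Joint detection followed the same groups. All 3 genes were detected in 27 cells, which were the 22 cholangiocyte-like cells, hepatocyte-like cells 2, 3 and 4, cell 10 with mesothelial and collagen markers and cell 29 with blood cell markers. All 3 reached 100 CPM in 21 cells, each of them cholangiocyte-like. The remaining cholangiocyte-like cell, cell 34, had 46.2 CPM of Tm4sf4 beside high Spp1 and Clu. Clu alone reached 100 CPM in 7 cells, cells 1, 4, 5, 7, 35, 37 and 39, none of them cholangiocyte-like.

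**Figure D2:**
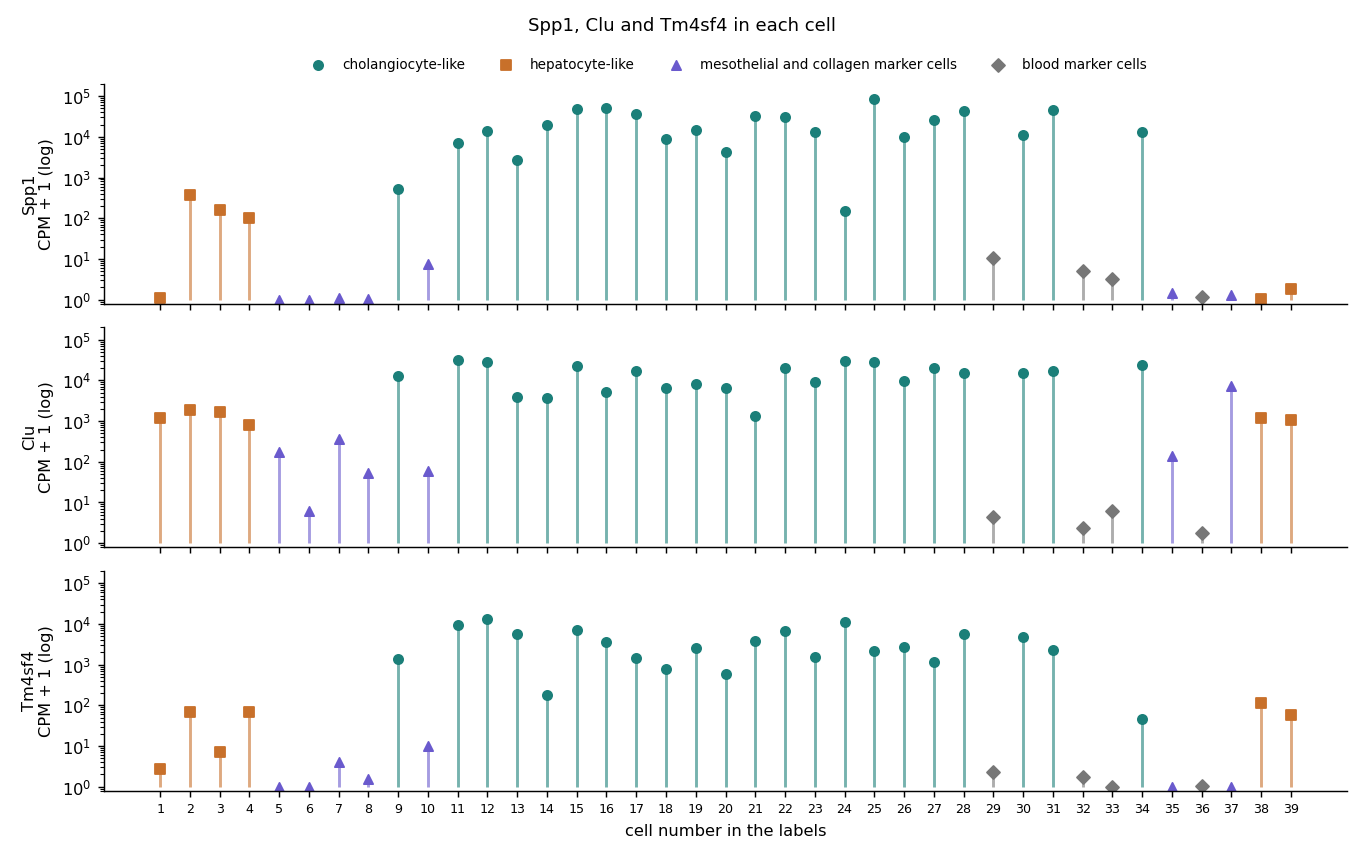
Level of Spp1, Clu and Tm4sf4 (CPM + 1, log scale) in each cell, in the order of the cell numbers in the labels, with color and shape giving the cell group. Cell 24 at 149 CPM of Spp1, cell 34 at 46.2 CPM of Tm4sf4 and cell 37 at 7137 CPM of Clu stood apart from their groups.

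Few genes had such a pattern by level. Of the 10061 symbols, 28 (0.278%) reached 100 CPM in at least 20 of the 22 cholangiocyte-like cells. Of these, 4 (0.0398% of all symbols) also did so in at most 5 of the 17 other cells: Spp1, Tm4sf4, the epithelial keratin Krt8 and the immediate early gene Fosb. Clu missed that count because it reached 100 CPM in 10 of the other cells. By mean log2(CPM + 1) difference between the cholangiocyte-like and all other cells, Spp1 (11.55) ranked first of 9646 genes detected in at least 4 cells, Tm4sf4 (8.96) second and Clu (6.55) sixth. These ranks describe genes chosen for this pattern and support nothing further.

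Other bile duct markers were high in fewer of the same cells. Spp1 and Clu reached 100 CPM in 22 and Tm4sf4 in 21 of the 22 cholangiocyte-like cells. The 16 other measured markers did so in 0 to 11 cells, with a median of 6. At 1 CPM, which the 3 members reached in all 22 cells, the 16 markers were detected in 3 to 19 cells, with a median of 12.5. Krt19, the duct keratin whose promoter drove the Cre, and the RNA-binding protein gene Bicc1 reached 100 CPM in 11 of these cells each. The tight junction gene Cldn7 did so in 10, Krt7 in 9, the transcription factor Sox9 in 8 and the adhesion molecule Epcam in 6. Among the cells with mesothelial and collagen markers, Krt19 reached 100 CPM in 4 and Krt7 in 3. Krt19 was below 1 CPM in 7 of the 22 cells. Those 7 had 9739 to 50549 CPM of Spp1, 5313 to 24355 CPM of Clu and 46.2 to 7226 CPM of Tm4sf4, and the 15 with Krt19 at or above 1 CPM had 149 to 83095, 1307 to 31269 and 183 to 13198 CPM of these genes in the same order. The ranges overlapped for each gene.

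Levels can be set between genes only per length of transcript. The transcripts measured 1410 to 1507 bases for Spp1, 1810 for Clu and 1496 for Tm4sf4. Per kilobase the median over cholangiocyte-like cells was 10150 CPM for Spp1 (105 to 58878), 8370 CPM for Clu (722 to 17276) and 1746 CPM for Tm4sf4 (30.9 to 8822). Among 9906 genes with a length, Spp1 was the top gene in 13 cells and among the top 10 in 19, and Clu was among the top 10 in 18. Tm4sf4 was among the top 10 in 4 cells and the top 100 in 15. Of the 3, Spp1 was highest in 14 cells, Clu in 7 and Tm4sf4 in 1, cell 13. Symbols without a length were not ranked. By CPM without regard to length, Rn45s took 8.42% to 31.2% of a cholangiocyte-like cell's CPM, against 0.00476% to 5.78% for Spp1. Together the 3 genes made up 1.30% to 8.26% of a cholangiocyte-like cell's CPM (median 3.28%), against 0.15% to 0.32% in hepatocyte-like cells (median 0.214%).

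The members differed in how evenly they were expressed among the cholangiocyte-like cells. The SD of log2(CPM + 1) over the 22 cells was 2.18 for Spp1, 1.95 for Tm4sf4 and 1.19 for Clu. The highest cell exceeded the lowest 557-fold for Spp1, 285-fold for Tm4sf4 and 23.9-fold for Clu. Single cells set much of this spread. Without cell 24 the Spp1 range was 156-fold (SD 1.69), without cell 34 the Tm4sf4 range was 72.1-fold (SD 1.53), and without cell 21 the Clu range was 8.43-fold (SD 0.98). Clu remained the most even of the 3, Spp1 the least.

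As deposited, cell 24 combined the lowest Spp1 with the second highest levels of the other 2 members. It had 149 CPM of Spp1, 30742 CPM of Clu and 10887 CPM of Tm4sf4, with 20676 CPM of Krt19. Its values summed to 3128332 CPM, the highest of the 39 cells, so its levels also carry the largest scale. As a share of the cell's own CPM, Spp1 took 0.00476%, Clu 0.983% and Tm4sf4 0.348%. The group's medians of these shares were 1.55%, 1.15% and 0.263%. By share, Spp1 in cell 24 remained the lowest, while its Clu was below the median and its Tm4sf4 above it.

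Across all 39 cells the 3 genes varied together, with lower correlations within the cholangiocyte-like cells. Spearman correlations over 39 cells were 0.72 for Spp1 with Clu, 0.76 for Spp1 with Tm4sf4 and 0.79 for Clu with Tm4sf4. Over the 22 cholangiocyte-like cells they were 0.05, 0.03 and 0.38, and over the 17 other cells 0.12, 0.43 and 0.45. Leaving out any 1 cell gave -0.04 to 0.21 for Spp1 with Clu, -0.05 to 0.17 for Spp1 with Tm4sf4 and 0.29 to 0.49 for Clu with Tm4sf4. The points are cells whose values share a scale factor and a depth, and no p-value is given. The values over 39 cells also describe genes chosen for being high in the same cells. With each cell rescaled to the same total, Clu with Tm4sf4 was 0.23. The summed CPM of a cholangiocyte-like cell itself correlated at 0.69 with Clu and at 0.54 with Tm4sf4.

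**Figure D3:**
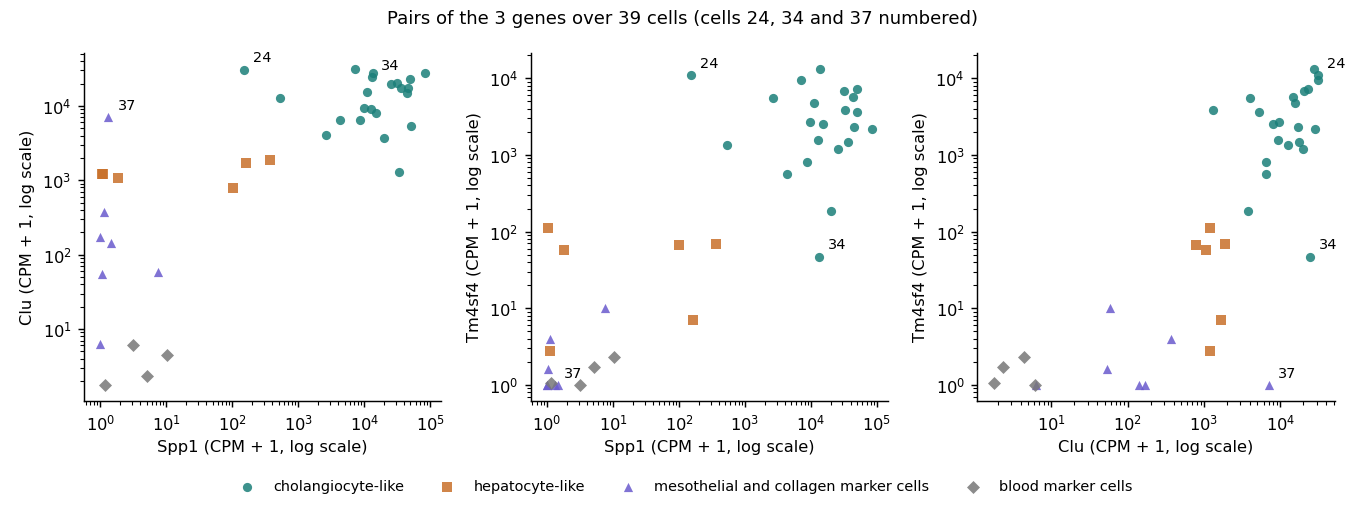
Each pair of the 3 genes over 39 cells (CPM + 1, both axes log scale), with color and shape giving the cell group and cells 24, 34 and 37 numbered. The cholangiocyte-like cells lie at the upper right, apart from most other cells, and among themselves they form a cloud for Spp1 with either other gene (Spearman 0.05 and 0.03).

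The genes most like each member over all cells included the other members and several epithelial genes. They were ranked by Spearman correlation among 4811 other genes detected in at least 10 of the 39 cells, a level that 47.8% of all symbols reached. For Spp1 they were the cadherin Cdh1 (0.76), Tm4sf4 (0.76), the growth factor Hbegf (0.74), the integrin subunit Itga5 (0.74) and the calcium channel subunit Cacnb4 (0.74), with Clu seventh (0.72). For Clu they were Tm4sf4 (0.79), Krt18 (0.74), Spp1 (0.72), Cdh1 (0.69) and the transcription factor Onecut2 (0.68). For Tm4sf4 they were Clu (0.79), Spp1 (0.76), the ubiquitin ligase Rnf128 (0.72), Tstd1 (0.69) and Onecut2 (0.69). The 95th percentile over all ranked genes was 0.36 for Spp1, 0.30 for Clu and 0.33 for Tm4sf4. Clu and Tm4sf4 were each other's most similar gene. The members were chosen together for being high in the same cells, so their ranks for each other over all cells support nothing further.

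Within the 22 cholangiocyte-like cells the lists were different, and the members no longer led each other's. Among 4179 genes detected in at least 6 of these cells, Spp1 was most like the plasma protein genes Cp, ceruloplasmin (0.75), and Trf, transferrin (0.74), and the synaptotagmin Syt12 (0.70). Clu ranked 1541st for Spp1 and Tm4sf4 1759th. Clu was most like the lysosomal protease Ctsb (0.73), the cyclooxygenase Ptgs1 (0.71) and the mitochondrial fission gene Fis1 (0.71). Tm4sf4 was most like Zfand6 (0.73), the formin Diap2 (0.71) and Tmed5 (0.66). Several of these genes were mostly below detection, with medians in the cholangiocyte-like cells of 0.0137 CPM for Ptgs1, 0.569 CPM for Fis1 and 0.101 CPM for Zfand6, so their ranks rest largely on low values. With 22 cells and a scale factor in common, correlations of this size are the top of a long list and are given only as a description.

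Spp1 ran with albumin and against Krt19 in the cholangiocyte-like cells. Its Spearman correlation was 0.57 with Alb (0.52 to 0.70 without any 1 cell) and -0.55 with Krt19 (-0.62 to -0.48). Rescaling the cells gave 0.62 and -0.58. The 13 cells with Alb at or above 100 CPM had 8735 to 50549 CPM of Spp1, and the 9 below it had 149 to 83095 CPM, so the highest and the lowest Spp1 cells both lay on the low-albumin side. Spp1 also correlated at -0.63 with the share of Rn45s in the cell, and the part of that in the other relations was not tested. Clu ran the other way with albumin, at -0.39 (-0.32 rescaled), and its value with Krt19 was 0.02 as deposited and -0.28 rescaled. Tm4sf4 showed -0.03 with albumin (-0.06 rescaled) and 0.25 with Krt19 (0.13 rescaled).

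With 12 transcription factors of the biliary and hepatocyte lineages, correlations in these cells ran from -0.31 to 0.44 for Spp1, from -0.39 to 0.51 for Clu and from -0.38 to 0.45 for Tm4sf4. The highest was Foxa1 for Spp1, Foxa2 for Clu and Hnf4a for Tm4sf4, and Foxa1 was at -0.25 with Clu and -0.38 with Tm4sf4. Over all genes ranked in these cells the 95th percentile was 0.36 for Spp1 and 0.38 for Clu and for Tm4sf4. These 3 factors were sparse. Foxa1 and Hnf4a reached 100 CPM in 4 of the 22 cells each and Foxa2 in 1, so a correlation rests largely on low values.

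The 5 transcripts of Spp1 were not equally represented. NM_009263 made up a median of 86.3% of Spp1 CPM in the cholangiocyte-like cells (39.7% to 96.2%) and NM_001204203 a median of 10.3% (0.625% to 45.8%). The remaining 3 had medians of 2.53% for NM_001204202, 0.532% for NM_001204233 and 0.264% for NM_001204201. The cells fell into a larger and a smaller set. In 18 cells NM_009263 held 75.1% to 96.2%, and in cells 9, 13, 24 and 34 it held 39.7%, 43.3%, 44.5% and 45.2%. In these 4 cells NM_001204203 held 39.2%, 45.8%, 34.8% and 42.5%, against at most 19.1% in the other 18. Cells 24, 9 and 13 were also the 3 cholangiocyte-like cells with the least Spp1, at 149, 534 and 2663 CPM, while cell 34 was near the group's median. The transcripts share most of their sequence, so these shares are estimates that depend on how shared reads were divided.

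**Figure D4:**
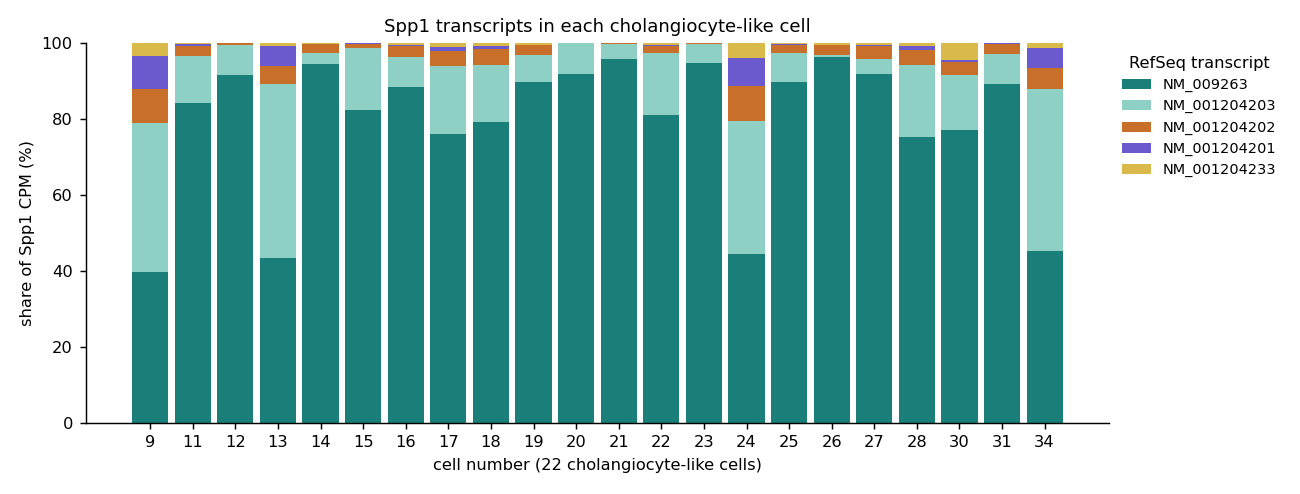
Share of Spp1 CPM (%) given to each of 5 RefSeq transcripts in each of the 22 cholangiocyte-like cells. NM_009263 held 75.1% or more in 18 cells and 39.7% to 45.2% in cells 9, 13, 24 and 34.

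Genes that act with the members were set beside them by the same difference in mean log2(CPM + 1), cholangiocyte-like minus all other cells. A gene was counted as higher at a difference of at least 2 and as lower at -2 or less. By this rule 2.92% of 9646 genes were higher and 8.86% were lower, and the median difference over all genes was -0.27. The counts that follow describe these cells and carry no test.

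Of 10 listed osteopontin receptors, 7 were measured, with 2 counted as higher, none as lower and a median difference of 1.09. The 2 were Cd44 (2.39) and the fibronectin receptor subunit Itga5 (3.69). Cd44 reached 100 CPM in 11 of 22 cholangiocyte-like cells, against 0 of 6 hepatocyte-like cells, 0 of 7 cells with mesothelial and collagen markers and 4 of 4 cells with blood cell markers. Itga5 reached it in 7 of 22 cholangiocyte-like cells and in no other cell. The integrin subunit Itgav, which pairs with several beta subunits to bind osteopontin, reached 100 CPM in 6 cholangiocyte-like cells and in 4 of 7 cells with mesothelial and collagen markers (difference 1.11). Itgb6, a beta subunit of epithelia, reached it in 4 cholangiocyte-like cells and nowhere else (1.09). The 11 cholangiocyte-like cells with Cd44 at 100 CPM had 4299 to 83095 CPM of Spp1, and the 11 below it had 149 to 50549 CPM, so the ranges overlapped.

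Of 7 listed genes of osteopontin processing, 5 were measured. The matrix protease Mmp7, which cleaves osteopontin, was counted as higher (2.88) and reached 100 CPM in 4 cholangiocyte-like cells and no others. Prothrombin (F2), whose active form also cleaves it, was counted as lower (-2.38) and was a hepatocyte gene here, with 1 cholangiocyte-like cell and 6 of 6 hepatocyte-like cells at 100 CPM. The cross-linking enzyme Tgm2 differed by -1.45, the protease Ctsd by -1.64 and the secretory kinase Fam20c by -0.54. The 4 other genes of the osteopontin family listed (Ibsp, Dmp1, Dspp and Mepe) were not analysed here. Of 10 listed matricellular proteins, 5 were measured. Cyr61 (5.79) and Ctgf (2.94) were counted as higher, and Sparc (-2.07) as lower. Cyr61 reached 100 CPM in 15 of 22 cholangiocyte-like cells and in no other cell.

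Clusterin's receptors were not among the genes higher in the cholangiocyte-like cells. Of 6 listed, 4 were measured and 3 detected in enough cells to be ranked, with 2 counted as lower. Lrp1, a large endocytic receptor, differed by -2.64 and reached 100 CPM in 4 of 22 cholangiocyte-like cells, 3 of 6 hepatocyte-like cells, 3 of 7 cells with mesothelial and collagen markers and 1 of 4 with blood cell markers. Plxna4 differed by -3.25 and reached it in 6 of 7 cells with mesothelial and collagen markers and nowhere else. The endocytic receptor Lrp2 differed by -1.26. Furin, a proprotein convertase of the secretory route listed under clusterin processing, differed by 1.37 and reached 100 CPM in 7 cholangiocyte-like cells.

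Chaperones of the endoplasmic reticulum did not follow clusterin. All 10 listed were measured, with none counted as higher, 5 as lower (Hsp90b1, Calr, Pdia4, Pdia6 and Sdf2l1) and a median difference of -1.87. Calr had a median of 29.3 CPM in cholangiocyte-like cells, against 321, 433 and 745 CPM in the hepatocyte-like cells, the cells with mesothelial and collagen markers and those with blood cell markers. Among complement regulators, a class to which clusterin belongs by function, Serping1 differed by -3.98 and Cd55 by -2.54, and both were counted as lower.

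Tm4sf1, the other L6 family member measured of 4 listed, did not share the pattern of Tm4sf4. Its difference was -0.00, and it reached 100 CPM in 7 of 22 cholangiocyte-like cells, 0 of 6 hepatocyte-like cells, 5 of 7 cells with mesothelial and collagen markers and 0 of 4 with blood cell markers. Of 24 listed tetraspanins, 19 were measured, with 4 counted as higher and 1 as lower. Tspan8 (5.33), Tspan14 (3.27), Cd9 (2.74) and Tspan12 (2.38) were higher, and Tspan31 (-2.80) was lower. Tspan8 was the most regular of these, at 100 CPM in 12 of 22 cholangiocyte-like cells and 1 of the 17 others.

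**Figure D5:**
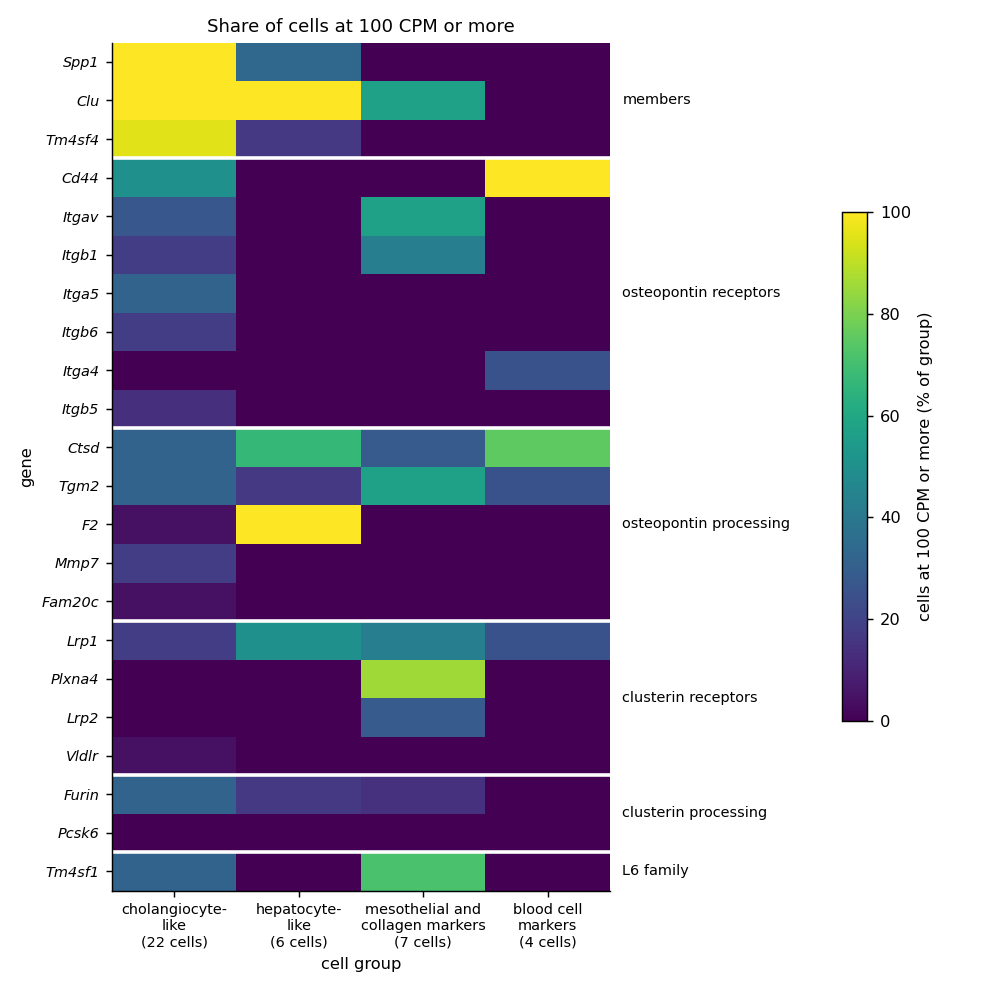
Share of cells (%) at 100 CPM or more in each cell group for the 3 members, osteopontin receptors and processing genes, clusterin receptors and processing genes, and Tm4sf1. In the cholangiocyte-like column Spp1 and Clu reached 22 of 22 cells and Tm4sf4 21, and the most regular partner gene, Cd44, reached 11.

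Transcription factors of bile duct cells were set beside the members last. All 12 listed were measured and 11 ranked, with 5 counted as higher and none as lower. They were Onecut2 (5.78), the duct factor Sox9 (4.45), the Notch target Hes1 (3.50), Sox4 (2.67) and the pioneer factor Foxa1 (2.28). Onecut2 reached 100 CPM in 17 of 22 cholangiocyte-like cells, the most of the 12, against 3 of 6 hepatocyte-like cells and no cell of the remaining groups. Hnf4a, a hepatocyte factor, reached it in 4 of 22 cholangiocyte-like cells and 3 of 6 hepatocyte-like cells.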

How the data were processed

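Single-cell RNA sequencing values of 39 GFP-positive mouse liver cells were used. Bowtie 0.12.9, eXpress 1.5.1, edgeR and the build mm9 are named in the submitters' processing notes, with no settings. The deposited values are on a log2 scale, with 13568 RefSeq transcripts. Their lowest value, -2.58, was common to all 39 cells and was taken as no reads. Linear values were 2 raised to the deposited value minus 0.167 and were called CPM from the values. They summed to 351255 to 3128332 per cell and were used as deposited. In 2 cells, 38 and 39, under 30% of the low values lay within 2% of a whole number of reads, and their depth is unknown. The libraries are not known to carry molecular identifiers, so intervals cover counting of cells alone.

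The design planned no test, because the labels give 1 group and no named animal. The members had also been chosen with earlier results known. No test was made. Cells were grouped by Ward linkage from 104 markers, as log2(CPM + 1) reduced to 10 principal components. The planned rule, the highest silhouette for 2 to 6 groups, gave 2 groups (0.451), which joined 33 cells against 6. The division of the same tree into 4 groups (0.441) was chosen after seeing the data. By the plan a name needed 3 or more detected markers of the type and no markers of another type among the 10 leading genes. The members were left out of naming. The main group was taken as the one with the highest mean log2 level of the 16 other cholangiocyte markers. The leading genes of the cholangiocyte-like cells were Spp1, Tm4sf4, Cdh1, Hbegf, Krt18, Clu, Krt8, Atf3, Cyr61 and Onecut2, of which the listed markers are the members. Without the members 0 of the 10 leading genes were listed markers, so the leading genes lend the name no support. No doublet caller was run and no cell removed.

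The members and gene lists were chosen with earlier results of these data known. Named genes were the members, the genes of the lists, the 5 most alike over all cells and the 3 most alike within the cholangiocyte-like cells. Cells 24, 34 and 37 and the division by transcript share were picked after their values were seen. Transcript lengths and gene positions came from the GENCODE annotation of GRCm38, with a length for 98.4% of transcripts. That build is not mm9, and no coordinates come from the deposited values. Python 3.11.15, numpy 2.4.6, pandas 2.3.3, scipy 1.17.1 and scikit-learn 1.9.0 were used. The ranking by fold difference and the likeness ranking were tried on simulated data, with each gene's values shuffled over the cells. The shuffle removes the depth and scale that genes of a cell share, so it cannot show how the rankings behave here. False calls of the likeness ranking were not measured. The grouping was not tried on simulated data. The count over the listed complement regulators is not reported here. Alternatives covered detection threshold, scaling, pseudocount, transcript summing and grouping.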

Additional observations from a re-analysis of the deposited data

How the results depend on the processing

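Of 85 values recomputed for 13 results, 63 moved less than their spread or limit, 22 moved more and none changed sign. Only the correlations among these results could change sign, as counts and medians cannot be negative. At any value above 0, Spp1 was present in 37 cells, Clu in 39 and all 3 genes in 34. At 100 CPM, Clu was present in 32 cells and Tm4sf4 in 22. Rescaling cells to the same total, with or without Rn45s, Lars2 and Rorb, put Clu in 39. Spearman's correlation of Spp1 with Clu was 0.70 by the highest transcript alone and 0.70 rescaled without those 3 genes. Clu with Tm4sf4 was 0.76 under both rescalings, and Pearson's correlation of Spp1 with Tm4sf4 was 0.87. Within the cholangiocyte-like cells Spearman's values were 0.05, 0.03 and 0.38. The cholangiocyte-like group held 12 cells by average linkage with 4 groups, and 33 cells under the highest silhouette, with average linkage or with a pseudocount of 0.1 or 10, where it also holds the 2 unnamed groups. Medians in the 12 cells were 25683 CPM for Spp1, 8578 for Clu and 2339 for Tm4sf4, and in the 33 cells 8735, 7137 and 1353 CPM. At a pseudocount of 10, 102 genes counted as higher and 168 as lower, against 282 and 855 at a pseudocount of 1. Beyond what each setting changes by construction, the cause was not tested. No paired analysis was possible because the labels give 1 group of single cells. One group of 39 cells from an unnamed number of animals cannot separate cell type from animal, sort or library.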
